A study of Homo sapiens with 4 samples.

Results

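Histone genes were examined in poly(A) RNA of PC3, an established line of human prostate cancer cells, in a study of METTL3 knockdown. The genes were the protein-coding rows of the gene count table whose symbols carry a prefix from a fixed list. The list holds prefixes of H1, H2A, H2B, H3 and H4 genes but not every histone symbol, and leaves out H2AW and H2BU1, for example. In all, 79 of the 60544 genes in the table met that rule. They were kept as 2 classes, 67 replication-dependent genes and 12 variant genes. Per the labels, 2 libraries came from PC3 cells with the shRNA shNC and 2 from PC3 cells with the shRNA sh812. The design text names METTL3 knockdown against control, and sh812 was read as the knockdown since the labels hold no other shRNA. METTL3 is the catalytic subunit of the enzyme complex that places the N6-methyladenosine mark on messenger RNA. The knockdown rests on 1 shRNA label in 1 cell line, and the labels do not say whether replicates came from separate cultures, so p-values measure only the spread between these libraries, which may be technical.

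Replication-dependent histone genes lie in clusters and supply the histones that package newly copied DNA, and their transcription is tied to S phase. Their messenger RNAs normally lack a poly(A) tail. They end in a conserved stem-loop that is bound by the protein SLBP, and the U7 small nuclear ribonucleoprotein directs the cut after it. Variant histone genes are expressed through the cell cycle and give polyadenylated messengers, and H2AX is known to give both kinds of end. Because RNA was selected on oligo(dT) here, the counts of a replication-dependent gene come from transcripts that were retained by that selection, and say nothing of the tailless messenger that is its main product. In bulk RNA, fewer cells of a type, such as cells in S phase, and less RNA per cell cannot be told apart.

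The stem-loops below show the element that marks the tailless end, for the called genes whose models hold it and for other abundant genes described below. Each was read from a GENCODE 29 transcript (GRCh38), with the 16 bases of the stem-loop in capitals and 5 flanking bases on each side.
H2BC21: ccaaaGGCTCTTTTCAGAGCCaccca
H2BC18: ccaaaGGCTCTTTTCAGAGCCacttc
H2AC6: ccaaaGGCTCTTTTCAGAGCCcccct
H2BC8: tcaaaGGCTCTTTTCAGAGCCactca
H4C8: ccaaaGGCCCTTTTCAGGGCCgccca
H2BC4: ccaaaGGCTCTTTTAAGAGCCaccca
H4C9: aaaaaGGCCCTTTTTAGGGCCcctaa
H2AX: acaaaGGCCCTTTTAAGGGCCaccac
In the annotation the transcripts of these genes do not all end there. The H2BC21 transcript runs on for 1729 bases after its stem-loop, the H2BC18 transcript for 1479 and an H2AC6 transcript for 1114, whereas 1 of the H4C8 transcripts stops 18 bases after it. The last 30 bases of such extended models are shown next with the poly(A) signal, AATAAA or ATTAAA, in capitals, beside those of 3 variant genes.
H2BC21: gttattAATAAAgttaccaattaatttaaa
H2BC18: acacccaATTAAAagatataaaatgcggta
H2AC6: agcctggcatgaggtAATAAAaggtaatgc
H2AX: gactaattttATTAAAggattgtttttttt
H2AZ1: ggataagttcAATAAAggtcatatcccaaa
H2AZ2: tgatggaATTAAAtatattctgtgtaaaaa
Of the 67 replication-dependent genes, 20 had a model that ran at least 100 bases past the stem-loop, and 15 of these 20 carried such a signal near the end. For 9 genes the models that hold a stem-loop ended near it, and for 38 no stem-loop was found in any model. Models without a stem-loop did not enter this grouping otherwise. H2BC5, among the 9, and H2BC11, among the 38, have such a model with a poly(A) signal near its end. No stem-loop was found in the models of H2BC12, H1-2 and H1-3, which stop early in the annotation.

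METTL3 counts were 1682 and 1379 in shNC and 269 and 313 in sh812, and METTL3 fell by 2.42 on the log2 scale (SE 0.11, adjusted p = 5.54e-14 by edgeR's quasi-likelihood method, Benjamini-Hochberg). Total counts ran from 31450648 to 37041330 per library. Calls were made at an adjusted p under 0.05, and 1822 of 16802 tested genes (10.8%) were called, 912 of them higher in sh812 (5.43%) and 910 lower (5.42%). The epithelial markers KRT8, KRT18, KRT19 and EPCAM and the mesenchymal marker VIM were all expressed, from 69.3 to 640.5 CPM (counts scaled to library size), with KRT18 and EPCAM called higher. KLK3 and KLK2, prostate secretory genes known to be low in this line, were listed at 0. Of the markers of other cell types, PTPRC, DES and ACTA2 were near or under 1 CPM, and PECAM1 rose from 23.7 to 35.7 CPM. The part of these marker changes in the histone results was not tested.

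Most histone genes of the clusters had few counts in these libraries. Of the 67 replication-dependent genes, 30 passed the low-count filter, 37 did not, and 14 had no count in any library. No untested member of either class had more than 35 counts over the 4 libraries. Of the 12 variant genes 9 passed. H3-2, which sits among the variants by the symbol rule although it is a cluster gene, had 1 count in all. Near-identical copies touched few tested members. Windows of 150 bases taken from the transcripts were shared by another gene in more than 50% of cases for 13 members, and H2AC13 (51.7%) was the only 1 of them that was tested. The untested ones had at most 34 counts each over the 4 libraries, and how reads with several matches were treated is not known. Their low counts therefore need not mean little RNA.

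The replication-dependent class was lower in sum in both sh812 libraries. Its genes together had 274.4 and 283.1 CPM in shNC and 246.8 and 247.4 CPM in sh812, a mean of 278.7 ± 6.13 against 247.1 ± 0.442 CPM (SD, n = 2), which is a change of -11.3%. The variant class had 2233 and 2417 CPM in shNC and 2483 and 2473 CPM in sh812, a change of 6.59%. Its mean was 2325 ± 130 against 2478 ± 6.65 CPM (SD, n = 2), and its shNC libraries lay farther apart than the groups. Set against each other within a library, which needs no scaling between libraries, replication-dependent counts were 12.3% and 11.7% of variant counts in shNC and 9.94% and 10.0% in sh812. The groups did not overlap in any of these measures. The smallest p that a two-sided exact permutation test of 2 against 2 libraries can give is 0.333, so these sums are given as a description. All histone genes together held between 0.257% and 0.272% of a library's counts.

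**Figure D1:**
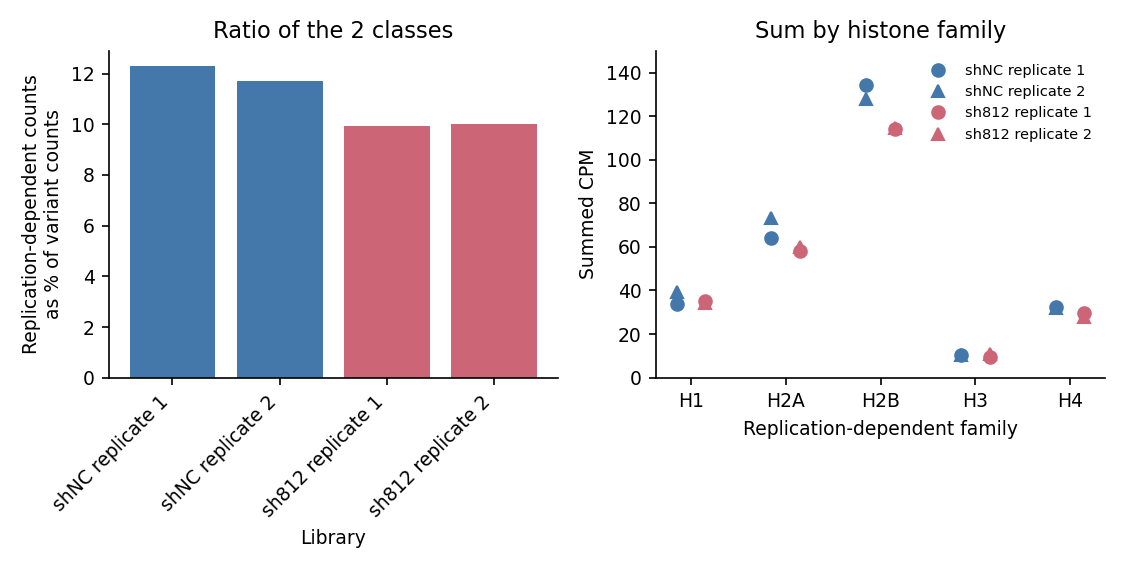
Left, counts of all replication-dependent histone genes as a percentage of the counts of all variant histone genes, 1 bar per library. Right, summed CPM of the replication-dependent genes by histone family, 1 point per library. The shNC bars stand at 12.3% and 11.7% and the sh812 bars at 9.94% and 10.0%, and the H2B sum is lower in both sh812 libraries.

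By single genes, 4 of the 30 replication-dependent genes tested fell (H1-3, H2BC18, H2BC21 and H2AC6), and 0 were called higher in edgeR's quasi-likelihood fit, against 5.42% and 5.43% of all tested genes. At an unadjusted p under 0.05 in edgeR, 8 were lower and 0 higher, against 2166 lower and 1995 higher of all 16802 tested genes. DESeq2 and limma-voom also called 0 higher. H1-3 passed the filter only through the shNC libraries, so 3 of the 4 calls rest on genes counted in both groups. The fitted value was below 0 for 18 and above 0 for 12, against 51% below 0 over all tested genes. Both sh812 libraries were below both shNC libraries for 13 genes and above them for 2, against 27.4% and 26.2% of all tested genes. The median log2 fold change was -0.06, with a range from -3.12 to 0.77, and the median of all genes was -0.0056. Of the 10 genes averaging 5 CPM or more, 9 had a value below 0, and their median was -0.26. Of the 20 tested genes under that level, 9 were below 0, with a median of 0.02, and H1-3 and H2BC18, the members with the lowest values, are among these 20.

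**Figure D2:**
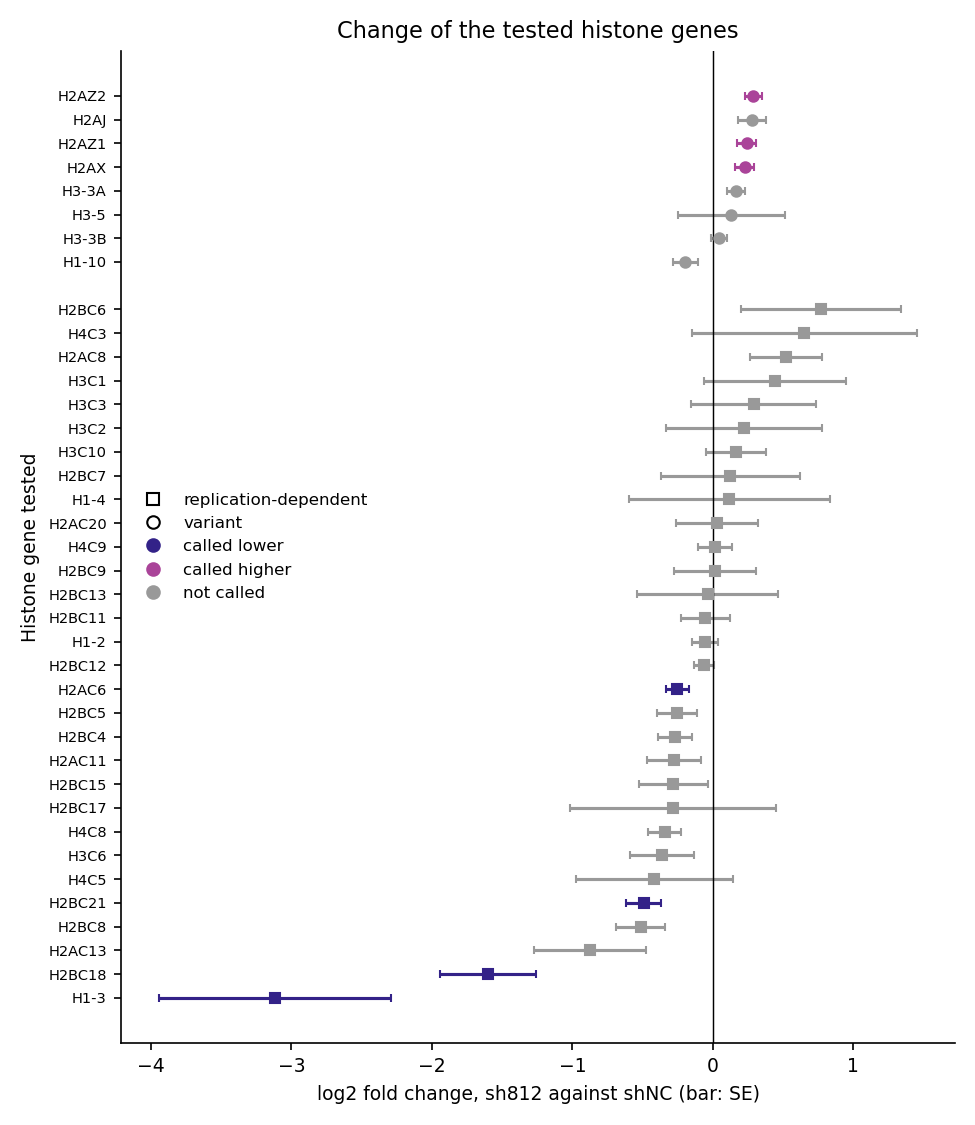
Fitted log2 fold change of 38 of the 39 tested histone genes, sh812 against shNC, with its SE as the bar. Squares are replication-dependent and circles variant genes, and colour marks the call. The 4 called replication-dependent genes lie below 0 and the 3 called variant genes above 0, and many poorly counted genes have long bars that cross 0.

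Histone H2B genes were the largest part of the replication-dependent class. Their sum was 134.1 and 128 CPM in shNC and 114.2 and 114.4 CPM in sh812, a change of -12.8%. Of the 13 tested H2B genes, 10 had a value below 0 (51% over all tested genes), 2 fell and 0 were called higher (5.42% and 5.43%), with a median log2 fold change of -0.26.

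H2BC21 is an H2B gene of the chromosome 1 cluster (chr1:149884459-149886652, minus strand). Its counts were 691 and 488 in shNC and 450 and 398 in sh812, or 18.2, 15.4, 12.8 and 11.1 CPM. The sh812 libraries were both below the shNC libraries, and the shNC libraries differed from each other by about as much as the nearest libraries of the 2 groups. H2BC21 fell by 0.49 on the log2 scale (SE 0.13, adjusted p = 0.0120 in edgeR). Leaving out shNC replicate 1 gave an adjusted p of 0.0800, and leaving out sh812 replicate 2 gave 0.167.

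H2BC18, in the same cluster (chr1:149782689-149812373, minus strand), had the largest fall among members counted in both groups. It had 88 and 87 counts in shNC and 26 and 33 in sh812, or 2.32, 2.75, 0.741 and 0.922 CPM. All 4 libraries separate by group, with a gap wider than the spread within either. H2BC18 fell by 1.60 on the log2 scale (SE 0.34, adjusted p = 0.00337 in edgeR), a mean of 2.54 ± 0.305 CPM against 0.831 ± 0.128 CPM (SD, n = 2). Of its 150-base windows, 10.3% occur in another gene. Its model overlaps FCGR1A on the opposite strand and AC243772.2 on the same strand, and reads of these genes cannot be separated in the table. H2BC18 was called in each alternative that gave an adjusted p, and DESeq2 gave none.

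The most abundant replication-dependent gene per kilobase was H2BC12, at a mean of 158.4 CPM per kb of annotated exon, although its annotated model is short. It had 60.6 and 62.8 CPM in shNC and 59.9 and 58.2 in sh812. The groups did not overlap but lay close together, and the log2 fold change of -0.06 was not called (adjusted p = 0.649 in edgeR). H2BC4 had 16.4, 14.4, 13.1 and 12.4 CPM in the order shNC 1, shNC 2, sh812 1 and sh812 2 (log2 fold change -0.27, adjusted p = 0.162 in edgeR). H2BC5 had 13.5, 10.4, 9.34 and 10.7 CPM, with groups that overlap (log2 fold change -0.26, adjusted p = 0.273 in edgeR). H2BC11 had 6.06, 7.43, 5.58 and 7.38 CPM and a value near 0 (log2 fold change -0.05, adjusted p = 0.897 in edgeR). H2BC8, chosen after its values were seen, had 349 and 222 counts in shNC and 174 and 230 in sh812, with a log2 fold change of -0.51 (adjusted p = 0.0578 in edgeR). It did not pass the threshold, and its groups do not overlap in CPM (9.20 and 7.02 against 4.96 and 6.43).

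**Figure D3:**
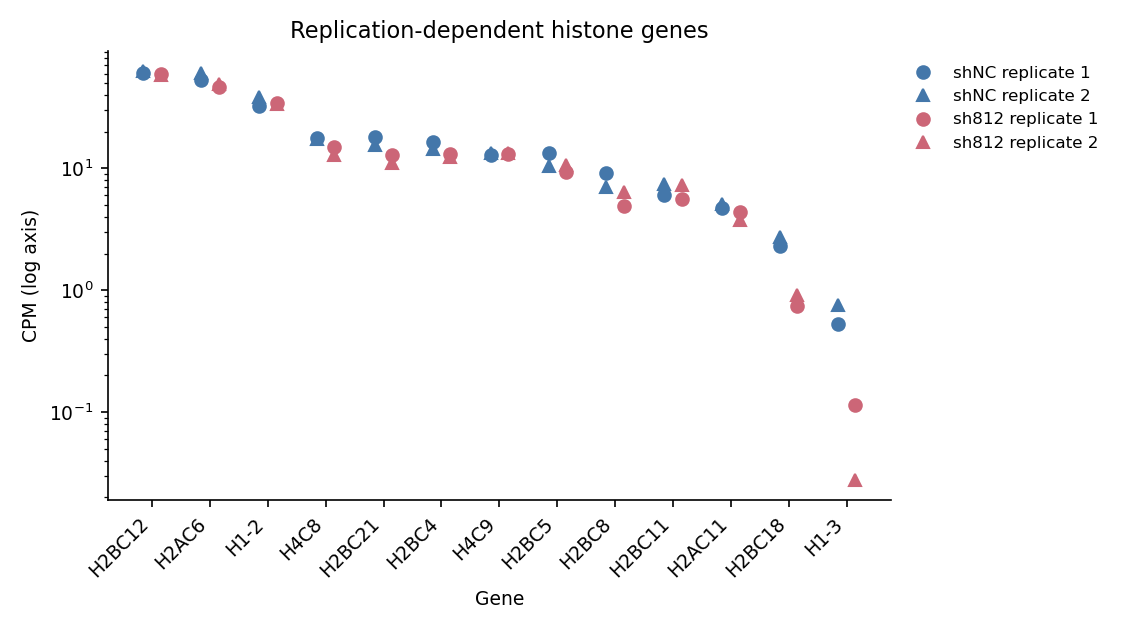
CPM on a log axis of the 11 most abundant tested replication-dependent histone genes and of the called genes H2BC18 and H1-3, 1 point per library. The points of H2BC18 and H1-3 stand far apart by group, those of H2BC21 and H2AC6 by little, and those of H1-2 and H4C9 overlap.

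Among the H2A genes of this class the sum was 63.9 and 73.1 CPM in shNC and 58.1 and 59.8 CPM in sh812, a change of -14.0%. Only 5 of 16 were tested, of which 1 fell, and that gene, H2AC6, made up most of the sum. H2AC6 (chr6:26124145-26139116, plus strand) had 2012 and 1929 counts in shNC and 1634 and 1755 in sh812, or 53.1, 61.0, 46.6 and 49.0 CPM. The groups are separated by less than the distance between the shNC libraries. H2AC6 fell by 0.25 on the log2 scale (SE 0.08, adjusted p = 0.0447 in edgeR), just inside the threshold. The adjusted p was 0.0522 with RLE size factors and 0.0776 in DESeq2, and 0.260 without shNC replicate 2. Without sh812 replicate 1 it was 0.363, and without sh812 replicate 2 it was 0.143. The other 4 tested H2A genes were not called, and their values ran from -0.87 (H2AC13) to 0.52 (H2AC8), 2 genes named here for being the extremes.

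The linker histone H1 binds the DNA between nucleosomes. H1-3 (chr6:26234268-26234933, minus strand) had 20 and 24 counts in shNC and 4 and 1 in sh812. The groups do not overlap, but the sh812 values are a few counts each. H1-3 fell by 3.12 on the log2 scale (SE 0.82, adjusted p = 0.0152 in edgeR), a fitted value that depends on the prior count. Its adjusted p rose to 0.0945 when shNC replicate 2 was left out, to 0.0580 when sh812 replicate 1 was, and to 0.213 when sh812 replicate 2 was. H1-2, the second of the class per kilobase at 54.3 CPM per kb, had 32.7, 38.4, 34.4 and 33.9 CPM in the order given above. Its groups overlap (log2 fold change -0.06, adjusted p = 0.772 in edgeR). The H1 sum of the class, 33.8 and 39.5 CPM in shNC and 35.4 and 34.3 in sh812, overlapped between groups.

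Of the core histone genes of the clusters, 5 of 14 H3 genes and 4 of 14 H4 genes were tested. By edgeR's adjusted p 0 of them were called, against 10.8% of all tested genes. So few tested genes cannot show an absence of change. At an unadjusted p under 0.05 in edgeR there were 0 H3 genes and 1 H4 gene, lower. Of all 16802 tested genes 2166 were lower and 1995 higher at that level. DESeq2 also called 0 of these H3 and H4 genes. H4C8 had 17.9 and 17.3 CPM in shNC and 14.9 and 12.9 CPM in sh812, with groups that do not overlap. Its log2 fold change was -0.34 (SE 0.12), and the adjusted p of 0.0601 in edgeR missed the threshold. It passed in 6 of 14 alternatives, where the adjusted p ran from 0.0177 to 0.0464 in edgeR, and over all 14 it ran from 0.0177 to 0.465. These 6 were library size alone, the filter at a mean of 1 CPM, the replicate block, the removal of either trend described below, and the fit without shNC replicate 2. H4C9 had 12.8, 13.5, 13.3 and 13.4 CPM and a log2 fold change of 0.02 (adjusted p = 0.955 in edgeR). The H4 sum was 32.3 and 31.9 CPM in shNC and 29.5 and 28.0 CPM in sh812, a change of -10.5%. The H3 sum, 10.3 and 10.5 CPM in shNC and 9.63 and 10.9 CPM in sh812, overlapped between groups, and 4 of the 5 tested H3 genes had a value above 0.

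When the tested genes were grouped by their annotated 3′ end, the 15 whose models run past the stem-loop had 10 values below 0 and a median log2 fold change of -0.28. H2BC18, H2BC21 and H2AC6 are among these 15. The 4 whose stem-loop models end near that element had a median of -0.15. The 11 with no stem-loop in any model had 5 values below 0 and a median of 0.03. These groups do not separate genes with an annotated poly(A) signal from genes without, since H2BC5 and H2BC11 have models with such a signal. The difference between these groups was not tested, and the groups also differ in abundance, with the lowest median CPM where no stem-loop was found.

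The variant genes were more abundant, and most of their values were above 0. Of the 9 tested, 8 had a value above 0, 3 rose (H2AX, H2AZ1 and H2AZ2) and 0 were called lower, against 5.43% and 5.42% of all tested genes. At an unadjusted p under 0.05 in edgeR, 5 were higher and 1 lower, against 1995 higher and 2166 lower of all 16802 tested genes. DESeq2 called 3 higher and 0 lower. Both sh812 libraries were above both shNC libraries for 5 genes, against 26.2% of all tested genes. The median log2 fold change was 0.16, with a range from -0.20 to 0.29.

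The 3 genes that rose encode H2A variants. The H2A variant sum was 497.3 and 565.1 CPM in shNC and 630.4 and 636.2 CPM in sh812, a change of 19.2%. H2AZ1 and H2AZ2 encode the 2 forms of H2A.Z, a variant placed at promoters and regulatory regions. H2AZ2 (chr7:44826791-44848083, minus strand) had 174.2 and 186 CPM in shNC and 217.6 and 221.5 CPM in sh812. The gap between the groups is wider than the spread within them. H2AZ2 rose by 0.29 on the log2 scale (SE 0.06, adjusted p = 0.00292 in edgeR), and among the alternatives it missed the threshold only without sh812 replicate 2 (adjusted p = 0.0858). H2AZ1 (chr4:99948086-99950388, minus strand) had 189.6 and 228 CPM in shNC and 244.6 and 248.2 CPM in sh812. Its shNC libraries lie farther apart than the groups do, and its log2 fold change was 0.24 (SE 0.07, adjusted p = 0.0257 in edgeR). AC097460.1 overlaps it on the opposite strand.

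H2AX, whose protein is phosphorylated at DNA breaks, had 114 and 130 CPM in shNC and 143.3 and 142.1 CPM in sh812 (chr11:119093854-119095467, minus strand). The groups do not overlap, and the log2 fold change was 0.23 (SE 0.07, adjusted p = 0.0282 in edgeR). With library size alone the adjusted p was 0.0715 for H2AX and 0.0612 for H2AZ1. Without shNC replicate 1 the change of H2AX was 0.13 (adjusted p = 0.149) and that of H2AZ1 0.11 (adjusted p = 0.180). H2AX and H2AZ1 also lost the call without either sh812 library, where the adjusted p ran from 0.133 to 0.233. H2AJ, the fourth tested H2A variant, had 19.5, 21.2, 25.0 and 24.4 CPM and was not called (log2 fold change 0.28, SE 0.10, adjusted p = 0.0764 in edgeR).

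The H3.3 genes, which encode the H3 form that is deposited outside replication, are expressed through the cell cycle. H3-3B alone held 42.5% to 43.6% of all histone counts. It had 1072, 1177, 1166 and 1155 CPM, with groups that overlap (log2 fold change 0.05, adjusted p = 0.684 in edgeR). H3-3A had 151.6, 173.3, 181.6 and 182.2 CPM, with both sh812 libraries above both shNC libraries (log2 fold change 0.16, adjusted p = 0.109 in edgeR). Counts of the cluster H3 genes were 0.838% and 0.778% of H3.3 counts in shNC and 0.714% and 0.819% in sh812, so that the groups overlap.

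H1-10, a linker histone variant, had 36.6, 42.2, 36.1 and 32.6 CPM and was the only tested variant with a value below 0 (log2 fold change -0.20, adjusted p = 0.179 in edgeR). In order of abundance per kilobase the variants described here were led by H3-3B (186.3 CPM per kb), H2AZ1 (98.8), H2AX (82.0), H3-3A (54.7) and H2AZ2 (42.1). H1-10 (24.5 CPM per kb) and H2AJ (6.71) followed.

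**Figure D4:**
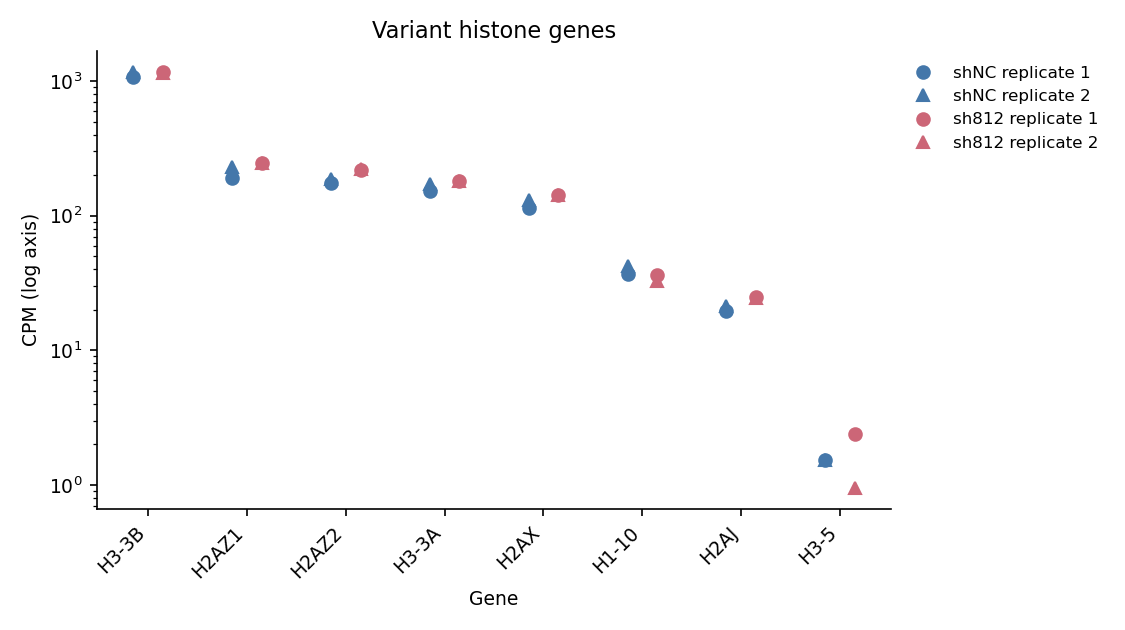
CPM on a log axis of 8 of the 9 tested variant histone genes, 1 point per library. The H2AZ1, H2AZ2 and H2AX points of sh812 lie above those of shNC, and the H3-3B points overlap.

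Many H2A and H2B genes of the clusters stand head to head and share a short stretch between their starts. There were 10 such pairs with starts under 1000 bases apart, and in 5 of them both genes were tested. These genes outside the naming rule are given because each is the partner of another. H2AC6 and H2BC4, with 219 bases between their starts, had similar values, -0.25 and -0.27. H2BC21 fell, while its partner H2AC20, 323 bases away, had 64 and 85 counts in shNC and 79 and 78 in sh812 (log2 fold change 0.03, SE 0.29, adjusted p = 0.971 in edgeR). H2AC8 and H2BC8 had values of opposite sign, 0.52 (SE 0.26) and -0.51 (SE 0.17), neither of them called. The other pairs were H2AC11 with H2BC11, at -0.28 and -0.05, and H2AC13 with H2BC13, at -0.87 and -0.04. The difference within a pair was not tested.

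Promoters of the H2B genes carry a known octamer element, ATTTGCAT, which is bound by the factor POU2F1. It was looked for in RefSeq windows (GRCh38.p14) from 250 bases before to 50 bases after the start, on both strands, and 71 of the 79 members had a window. The octamer was present in 14 of 17 H2B windows of the replication-dependent class (82.4%) and in 11 of 15 H2A windows (73.3%), against 1.77% of 35116 windows in the table. Head-to-head partners have overlapping windows, so a match can be counted for both. CCAAT was present in 85.5% of replication-dependent windows and in 34.6% of all, and TATAAA in 67.7% and 11.5%. The 120 bases before the start are shown for the 2 called H2B genes and for H2BC12, which was not called, each read on the minus strand of the gene, with the matches of the 3 motifs in capitals.
H2BC21, chr1:149886683-149886802: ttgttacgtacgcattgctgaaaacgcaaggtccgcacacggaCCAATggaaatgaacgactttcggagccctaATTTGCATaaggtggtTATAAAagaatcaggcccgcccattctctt
H2BC18, chr1:149812371-149812490: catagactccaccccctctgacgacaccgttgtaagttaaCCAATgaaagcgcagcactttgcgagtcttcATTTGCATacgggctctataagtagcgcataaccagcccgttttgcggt
H2BC12, chr6:27146859-27146978: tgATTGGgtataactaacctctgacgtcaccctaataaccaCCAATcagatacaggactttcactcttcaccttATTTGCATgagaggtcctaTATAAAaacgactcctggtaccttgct
The octamer and a CCAAT match were present in all 3 windows, in called and uncalled genes alike. A match is a run of letters and not a measured site.

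Transcript length moved with the comparison and differs between the classes. The median annotated exon length was 910 bases for the tested replication-dependent genes, 2344 for the tested variants and 4422 for all tested genes. Over all tested genes the median log2 fold change was 0.11 for those of up to 1000 bases and -0.08 for those over 8000 bases. Between the shNC replicates the same bins differed by 0.04 and -0.06 (replicate 2 against replicate 1). Between the sh812 replicates they differed by -0.0165 and -0.00186, so the trend was seen within shNC only. With each library's trend on length removed (the removal of length and GC trends together was also tried), the replication-dependent median went from -0.06 to -0.24 and 8 genes were called lower in place of 4. H2BC12 (-0.25, adjusted p = 0.0177), H2BC4 (-0.43, adjusted p = 0.0296), H4C8 (-0.43, adjusted p = 0.0177) and H2BC8 (-0.64, adjusted p = 0.0257) were then called in edgeR as well. Under the same correction H2AZ2 stayed called at 0.29 (adjusted p = 0.00152), H2AX was 0.12 (adjusted p = 0.223), H2AZ1 was 0.16 (adjusted p = 0.0957), and H1-10 was called lower at -0.31 (adjusted p = 0.0166). The lengths come from GENCODE 29, whose models of several cluster genes are partial.

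**Figure D5:**
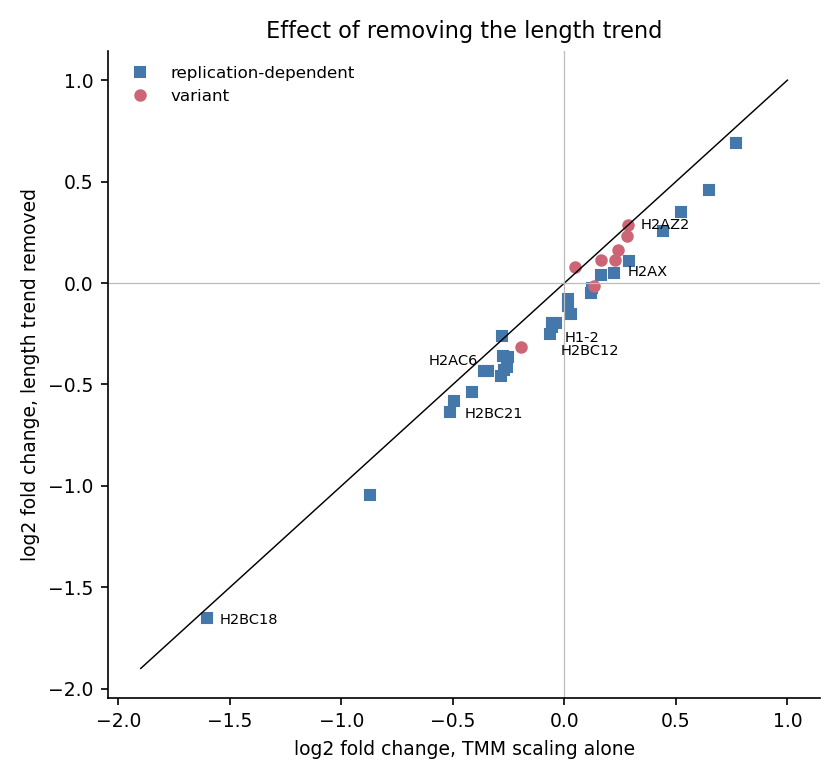
Log2 fold change of 37 of the 39 tested histone genes with TMM scaling alone (x axis) against the value with each library's trend on transcript length removed (y axis), with the line of equal values. H1-3 lies outside the plotted range, and 1 variant gene that is not reported here was also left out. Most points lie below the line, H2AX moves from 0.23 to 0.12, and H2AZ2 lies on the line.

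Counts on genes whose RNA normally has no poly(A) tail are given for comparison. How much tailless histone RNA passed the selection cannot be read from them. Genes of the types snRNA, snoRNA, scaRNA and rRNA together had 27.6 and 23.9 CPM in shNC and 24.0 and 23.3 CPM in sh812. The lower shNC library was below the higher sh812 library, so the groups overlap, and shNC replicate 1 stood above the others. For snRNA genes alone the values were 13.7 and 11 CPM in shNC and 10.5 CPM in each sh812 library, a change of -14.6%. These groups did not overlap, and the lower shNC library lay close to the sh812 libraries. RN7SL1 had 2.79, 0.759, 1.37 and 0.894 CPM, TERC at most 1 count, and RN7SK, RN7SL2, RMRP and RPPH1 were listed at 0. Whether the reads on these genes came from carried-over RNA, and the part of such RNA in the histone sums, was not tested.

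Genes that make and finish histone messengers were also listed. Of 47 listed genes for histone gene transcription and 3′ end processing, all tested, 33 had a value above 0 (49% over all tested genes). Of these 47, 5 rose and 1 fell, against 5.43% and 5.42% of all tested genes, or 10.8% in either direction. The median log2 fold change was 0.07. SLBP, which binds the stem-loop, had 74.2 and 74.7 CPM in shNC and 79.2 and 84.3 CPM in sh812 and was not called (log2 fold change 0.13, adjusted p = 0.227 in edgeR). NPAT, the coactivator of the clusters (0.02, adjusted p = 0.941), and the U7 subunits LSM10 (0.17, adjusted p = 0.189) and LSM11 (-0.12, adjusted p = 0.462) were not called in edgeR either. These 4 are named for their roles, outside the naming rule and with their values known. The genes that rose were SNRPG, SNRPE and SNRPF, which encode Sm ring proteins shared by the U7 and spliceosomal particles, the NELF subunit NELFE and the cleavage factor CPSF1, by 0.30, 0.25, 0.23, 0.22 and 0.19 on the log2 scale (adjusted p from 0.00692 to 0.0404 in edgeR). XRN1, the cytoplasmic 5′ to 3′ exonuclease, fell by 0.34 on the log2 scale (adjusted p = 0.0404 in edgeR).

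Histone chaperones carry histones to and from DNA. Of 37 listed genes 36 were tested, 28 had a value above 0 (49% over all tested genes), 9 rose and 0 were called lower (0 also in DESeq2 and limma-voom, and 2 at an unadjusted p under 0.05), with a median log2 fold change of 0.09. Over all 16802 tested genes 5.43% were called higher and 5.42% lower, and 2166 were lower at an unadjusted p under 0.05 in edgeR. The 6 with the smallest p were SSRP1, a subunit of the FACT complex (0.29, adjusted p = 0.00177 in edgeR), ANP32E, which removes H2A.Z (0.27, adjusted p = 0.00425), NPM1 (0.21, adjusted p = 0.0115), RUVBL2, a subunit of H2A.Z exchange complexes (0.22, adjusted p = 0.0196), TONSL (0.23, adjusted p = 0.0227) and NAP1L1 (0.19, adjusted p = 0.0244). Without sh812 replicate 1 the count of calls was 0, and without sh812 replicate 2 it was 1.

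The S phase genes, whose activity accompanies histone gene transcription, had values mostly above 0. All 32 listed were tested, 27 had a value above 0 (49% over all tested genes), 7 rose and 1 fell (5.43% and 5.42%), with a median log2 fold change of 0.11. UNG (0.41, adjusted p = 8.37e-05), HELLS (0.47, adjusted p = 0.00210), MCM6 (0.28, adjusted p = 0.00359), FEN1 (0.23, adjusted p = 0.0161) and PRIM1 (0.34, adjusted p = 0.0339) were among those that rose in edgeR. MCM10, which loads replication factors at origins, fell from 35.2 and 33.7 CPM in shNC to 25.8 and 25.7 CPM in sh812 (log2 fold change -0.42, adjusted p = 0.00337 in edgeR). The count of 8 calls was 5 with library size alone and 5 with the length trend removed, and ran down to 3 without sh812 replicate 1.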

How the data were processed

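Poly(A) RNA of 4 PC3 libraries (2 shNC, 2 sh812) was sequenced with a dUTP method as paired reads of 150 bases, per the labels' protocols. The deposited table holds raw counts per gene, which the authors had not normalized. The submitters' processing notes name hg38, fastp, STAR 2.7.1a, featureCounts and DESeq2; their settings, the annotation release, the strand setting and the treatment of reads with several matches are not given in the sources used here. Antisense partners and near-identical copies may therefore share reads.

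Counts were tested with edgeR 4.0.16 in R 4.3.3 (TMM, filterByExpr defaults, which require about 0.278 CPM in 2 libraries, glmQLFit and glmQLFTest, no covariate, Benjamini-Hochberg over 16802 genes, called at an adjusted p under 0.05). Fitted values used a prior count of 0.125, and the SE came from the F statistic. CPM values were scaled to TMM-adjusted totals. Gene models, positions and lengths come from GENCODE 29, matched by Ensembl identifier for 77 members and by older symbol for 2. Positions are not the authors'. Alternatives used limma 3.58.1, DESeq2 1.42.0, other scalings and filters, a replicate block, removal of lowess trends (span 0.3) on length and GC content of transcripts, and each library left out. The script was tested on simulated counts. Intervals were not computed for sums. The members and lists were chosen with earlier results of these data known. Named genes are METTL3, the called members, the 8 members of each class with the highest CPM per kb, and from each pathway list the called genes, at most the 6 with the smallest p. Some genes that these rules and the marker list select are not reported here, although sums and counts over a class include them.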

Additional observations from a re-analysis of the deposited data

How the results depend on the processing

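With 2 libraries per group, each call rests on few values. METTL3 stayed called in every alternative. The genes called (1822) ran from 587 to 3252 when a library was left out, and a group of 1 library is then assumed to vary like the other. The replication-dependent genes called lower (4) were 1 in DESeq2, which gives H1-3 and H2BC18 no adjusted p, 8 with the length trend removed, 8 with the length and GC trend removed, and 2 to 5 with a library left out. Their median (-0.06) was -0.263 with a mean CPM of at least 1 and -0.235 with either trend removed, ran from -0.205 to -0.033 with a library left out, and was 0.0132 with no low-count filter, which adds sparse genes. The variant genes called higher (3) were 1 with library size alone and 1 with either trend removed, and ran from 0 to 6 with a library left out. Those called lower (0) were 1 with either trend removed, and ran from 0 to 1. The variant median (0.164) ran from 0.112 to 0.269 with a library left out, and was 0.113 with the length trend removed, or 0.0886 when GC content was included. The S phase calls (8) were 5 with library size alone and 5 with either trend removed, and ran from 3 to 11. The chaperone calls (9) were 5 with library size alone, and ran from 0 to 12. The processing calls (6) ran from 1 to 15. Except where named, the cause was not tested. Library size alone gave 561 genes higher and 1328 lower (29.7% higher against 50.1%) and moved the median of all genes to -0.05.

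The labels number the replicates in both groups, but libraries of the same number did not deviate together across genes (correlation 0.0164). No pairing was seen, although 2 libraries per group cannot show that there was none. Under the replicate block 2001 genes were called, 6 replication-dependent genes lower (H4C8 and H2BC8 beside the 4), 3 variant genes higher, and METTL3 stayed at -2.42.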

Other observations

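Of 14 further histone genes that the symbol rule does not take, 5 were tested. Of these, 2 were called higher and 0 lower, against 5.43% and 5.42% of all tested genes. The macroH2A genes, which encode large H2A variants with an added macro domain, both rose. MACROH2A1 had 138.9 and 147.1 CPM in shNC and 176.9 and 169.6 CPM in sh812 (log2 fold change 0.28, SE 0.06, adjusted p = 0.00458 in edgeR). MACROH2A2 had 94.3 and 95.9 CPM in shNC and 113.2 and 113.1 CPM in sh812 (log2 fold change 0.25, SE 0.06, adjusted p = 0.0120 in edgeR). CENPA, the H3 variant of centromeres, had 41.2, 38.3, 42.7 and 39.7 CPM, with groups that overlap (log2 fold change 0.05, adjusted p = 0.762 in edgeR). H2AW, which was put in neither class and is left out of the class sums, had 9.39, 11.7, 9.63 and 8.83 CPM. It was not called (log2 fold change -0.19, adjusted p = 0.448 in edgeR), and neither was H2BU1 (0.23, adjusted p = 0.855). H4-16, which neither the rule nor these 14 genes include, was not called (-0.13, adjusted p = 0.924 in edgeR). With H2AX, H2AZ1 and H2AZ2, the called H2A variants named here were all higher in sh812, while the called replication-dependent H2A gene, H2AC6, was lower. H2AX and H2AZ1 were not called with library size alone or with either trend removed. H2AC6 was not called with RLE size factors or in DESeq2.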
